A study of Homo sapiens with 6 samples.

Results

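The EGFR family comprises receptor tyrosine kinases that share a fold and an activation mechanism, together with the growth factors that bind them. The receptors EGFR, ERBB2 and ERBB3 and the ligands AREG, EREG, HBEGF, TGFA, BTC and NRG1 were followed here in MDA-MB-231 cells given the compound TCI04. A probe set was counted when a member was the only gene symbol that the platform annotation gave it. Of 54675 probe sets on the array, 34 met this rule and covered 8 of the 9 genes. AREG, which encodes amphiregulin, was the sole symbol of no probe set in the annotation used here and was not analysed. Of the 34 probe sets, 27 had a mean signal above the limit used for testing and 7 did not.

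Ligands of this family are made as membrane-anchored precursors, and proteases of the ADAM family release the soluble factor. Binding of a ligand lets receptors pair, their kinase domains phosphorylate the partner's tail, and adaptors bound there start the RAS-ERK, PI3K and STAT pathways. ERBB2 has no known soluble ligand and acts as a partner of the other receptors, whereas ERBB3 has little kinase activity of its own and binds neuregulins. EGFR is known to be abundant in many triple-negative breast cancers, which lack the hormone receptors and ERBB2 amplification.

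MDA-MB-231 is a human triple-negative breast cancer line with a mesenchymal form. One group of 3 arrays came from cells exposed for 48 h to 50 µM of the compound that the labels name only as TCI04, and the other group of 3 arrays from cells kept for 48 h with phosphate-buffered saline (PBS). The medium of both groups held serum, per the labels. Whether replicate arrays stem from separate cultures is not given in the labels. The p-values therefore reflect how these arrays vary, and part of that variation may be technical.

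The values were MAS5 signals, which summarise the probes of a probe set on a linear scale, brought by the authors to the same trimmed mean of 500.1 on every array. The median signal was 58.9 to 59.8 on the TCI04 arrays and 64.0 to 74.3 on the PBS arrays. Of the markers of this line, VIM averaged 27694 ± 1284 with TCI04 and 30225 ± 1966 with PBS, and AXL 19136 ± 827 and 18723 ± 978 (SD, n = 3 arrays each). PGR and CDH1 had no probe set above the limit for testing and averaged 24.8 and 10.0 with TCI04, against 25.1 and 3.36 with PBS, in the brightest of each. The brightest of 9 ESR1 probe sets was dim but above that limit, at 28.9 ± 10.6 with TCI04 and 50.3 ± 38.8 with PBS. The luminal markers FOXA1 (112 ± 26.0 with TCI04 and 107 ± 23.2 with PBS) and GATA3 (763 ± 92.3 and 872 ± 112) and the epithelial marker EPCAM (404 ± 58.1 and 405 ± 15.8) were above it too. On TCI04 replicate 3, the ratio of the 3' to the 5' control signal of ACTB was 3.33, against 1.71 and 1.70 on TCI04 replicates 1 and 2 and 1.64 to 1.72 on the PBS arrays (TCI04 against PBS by an exact permutation test, two-sided p = 0.3, with 0.1 the smallest possible).

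The annotated starts of EGFR, for which 2 are listed, and of EREG are shown because they differ in the motifs described next. RefSeq windows on GRCh38.p14, from 250 bases before to 50 bases after a start, were held for 7 of the 9 genes in 9 windows. ERBB3 and NRG1 were not among them. Both strands were searched. Capitals mark the TATA box core, spelled TATAAA, and TGANTCA (N any base), a looser form of the element that AP-1 binds.
EGFR, start 1 (chr7:55018767-55019066, + strand): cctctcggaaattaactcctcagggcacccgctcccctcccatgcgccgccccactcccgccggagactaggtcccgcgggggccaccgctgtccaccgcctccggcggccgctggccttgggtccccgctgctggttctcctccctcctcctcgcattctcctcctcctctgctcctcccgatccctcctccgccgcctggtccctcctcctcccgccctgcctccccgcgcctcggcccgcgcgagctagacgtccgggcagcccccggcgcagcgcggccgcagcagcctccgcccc
EGFR, start 2 (chr7:55109589-55109888, + strand): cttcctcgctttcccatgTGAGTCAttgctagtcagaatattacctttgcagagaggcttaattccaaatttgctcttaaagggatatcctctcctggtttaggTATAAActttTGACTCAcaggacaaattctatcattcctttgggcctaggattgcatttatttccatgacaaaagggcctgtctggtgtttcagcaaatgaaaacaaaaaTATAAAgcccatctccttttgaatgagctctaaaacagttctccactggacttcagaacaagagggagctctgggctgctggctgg
EREG (chr4:74364895-74365194, + strand): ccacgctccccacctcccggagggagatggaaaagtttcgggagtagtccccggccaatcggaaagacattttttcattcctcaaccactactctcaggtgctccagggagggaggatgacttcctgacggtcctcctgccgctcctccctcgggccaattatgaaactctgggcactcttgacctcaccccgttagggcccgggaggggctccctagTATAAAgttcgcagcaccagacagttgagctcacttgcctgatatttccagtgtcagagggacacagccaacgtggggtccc

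The first EGFR window was 75.3% G and C and held 3 matches of the GC box core GGGCGG and none of the other motifs. The second was 42.0% G and C, with 2 matches of TATAAA, at -146 and -36 from the start (counted to the first base of a match), and 2 of TGANTCA, at -232 and -136. The median over all windows was 58.7% G and C. TATAAA was also found in the windows of EREG, at -32, and AREG, at -29, and TGANTCA in that of ERBB2, at -222, spelled TGATTCA there. The cAMP response element, spelled TGACGTCA, was found in the AREG window alone, at -65, and in 1.85% of all windows. HBEGF had 5 and TGFA had 4 matches of GGGCGG in its first window. Among 35116 windows of this length, 11.5% held TATAAA, 7.71% held TGANTCA and 45.0% held GGGCGG. The pattern TGANTCA was searched because FOS, which encodes an AP-1 subunit, was the only gene past the adjusted threshold in these data. EREG, AREG and BTC follow each other on chromosome 4 with 0 other protein-coding genes between them. The annotation does not place the probe sets on one or the other EGFR transcript, and a match is no evidence that a factor binds.

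In RNA from bulk cultures, fewer cells expressing a gene and less of its RNA per cell cannot be told apart. None of the 27 tested probe sets of the family passed the threshold of 0.05 on the p-value adjusted over all 32746 tested probe sets (limma, two-sided). Their adjusted p-values ran from 0.699 to 0.999. Over the whole array 1 probe set passed, that of FOS (0.00305%), which was lower with TCI04. That call was lost with median centring, without a variance trend, in an ordinary test on each probe set's own variance, and without any 1 of PBS replicates 1, 2 and 3 and TCI04 replicates 1 and 2. FOS measured 471, 506 and 560 with TCI04, against 1086, 1186 and 1183 with PBS. Among the 27, the log2 fold change was positive in 11 and negative in 16, with a median of -0.03. Over all tested probe sets 56.2% had a negative one and the median was -0.03. At an unadjusted p under 0.05 there was 1 family probe set (0 passed after adjustment), where 7.11% of all tested probe sets lay under it.

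**Figure D1:**
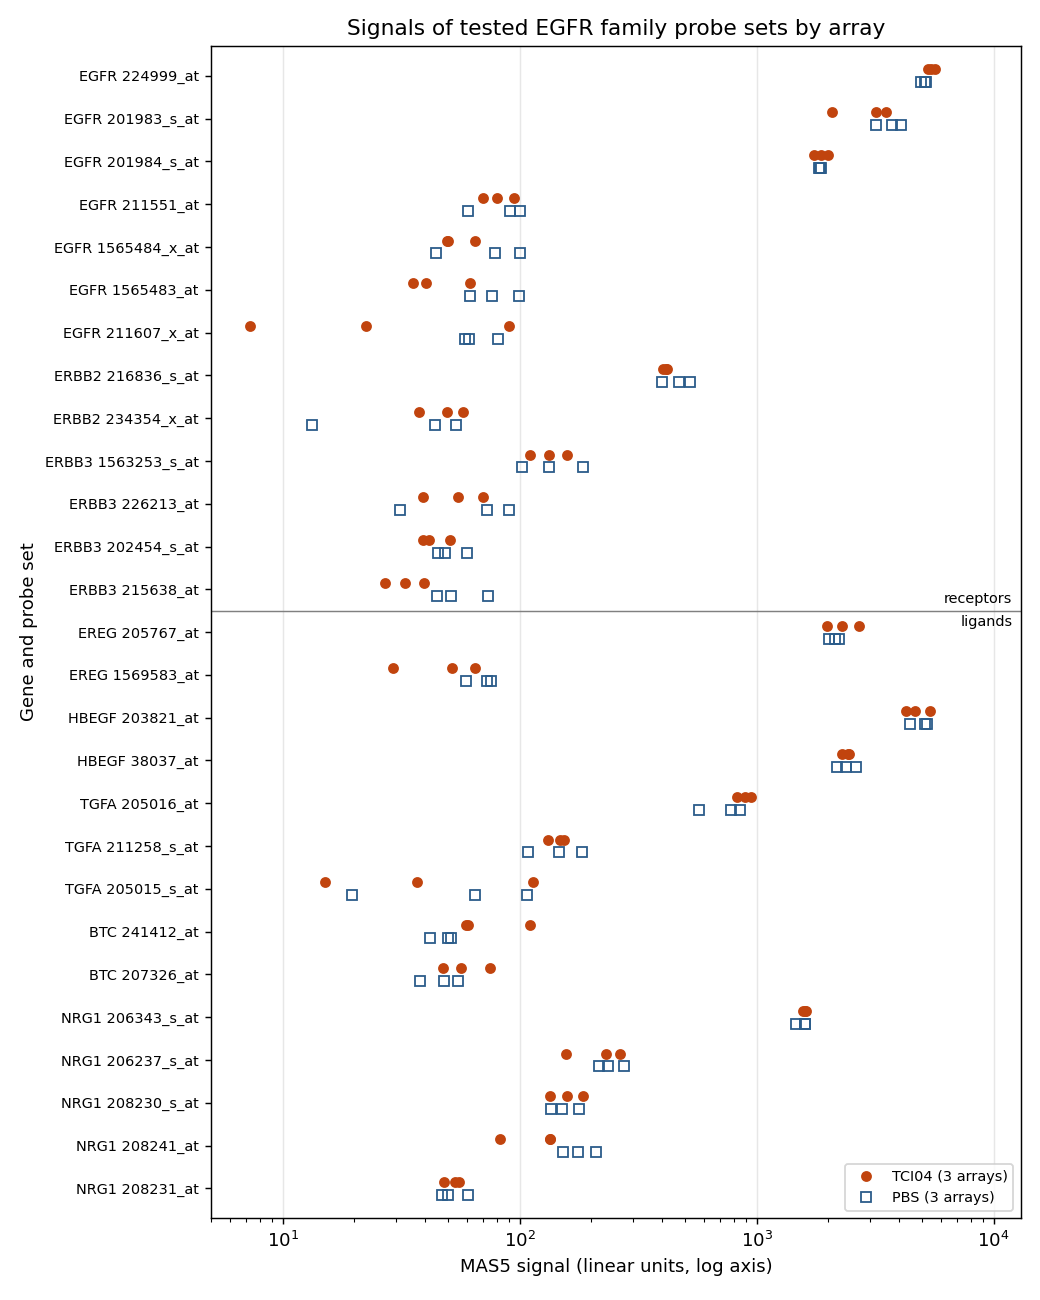
MAS5 signals (log axis) of the 27 tested probe sets of EGFR family receptors (above the line) and ligands (below it), with TCI04 arrays as filled circles above the PBS arrays as open squares. The points of 5 probe sets do not overlap between groups, among them EGFR 224999_at, with 5278 to 5679 in TCI04 arrays and 4953 to 5198 in PBS arrays.

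Among the receptors, EGFR had 9 probe sets, of which 7 were tested. The probe set with the highest mean signal, 224999_at, measured 5278, 5459.7 and 5679 with TCI04, against 5198, 5158 and 4953 with PBS. Every TCI04 array lay above every PBS array, though the lowest TCI04 and highest PBS values were close. The fitted log2 fold change of 0.10 (standard error 0.06) had a 95% interval of -0.03 to 0.23, that is, from 0.981-fold to 1.17-fold (limma, adjusted p = 0.709). EGFR 201984_s_at measured 1742, 1876 and 2006 with TCI04, against 1861, 1836 and 1864 with PBS. The TCI04 values lay on either side of the PBS values, with a log2 fold change of 0.01 and an interval from -0.15 to 0.18 (limma, adjusted p = 0.970).

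EGFR 201983_s_at measured 3190.2, 3504 and 2072 with TCI04, against 4083, 3724 and 3195 with PBS. The groups overlapped only in that TCI04 replicate 2 lay above PBS replicate 3. TCI04 replicate 1 lay just below PBS replicate 3, and TCI04 replicate 3 was the lowest of all arrays. The log2 fold change was -0.35 (standard error 0.17), 1.28-fold lower, and its interval ran from -0.73 to 0.02 (limma, adjusted p = 0.699). The fold change rested largely on TCI04 replicate 3, without which it was -0.13 (limma, adjusted p = 0.895). On that array the signal of 201983_s_at was 0.81 below its PBS mean on the log2 scale, while the 5' control probe set of ACTB was 1.07 below its own and the 3' control 0.07 below. On the same array EGFR 224999_at was 0.15 above its PBS mean and 201984_s_at 0.11 above.

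The difference in shift between EGFR probe sets was examined within arrays, a comparison chosen after their values were seen. Relative to 224999_at, the log2 signal of 201983_s_at was lower with TCI04 by a mean of -0.46, with array values of -0.24, -0.16 and -0.97, against 0.13, 0.01 and -0.15 in the PBS arrays. The groups did not overlap, but the lowest PBS value lay within 0.1 of the highest TCI04 value (exact two-sided permutation test, p = 0.1, the smallest that 3 against 3 arrays allow). Without TCI04 replicate 3 the difference was -0.20 (exact two-sided permutation test, p = 0.2, with 0.1 the smallest possible). Relative to 201984_s_at the difference was -0.37 (exact two-sided permutation test, p = 0.3), and -0.09 without TCI04 replicate 3 (p = 0.6 in the exact two-sided permutation test). The part of RNA or labelling quality on that array in this result was not tested further.

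**Figure D2:**
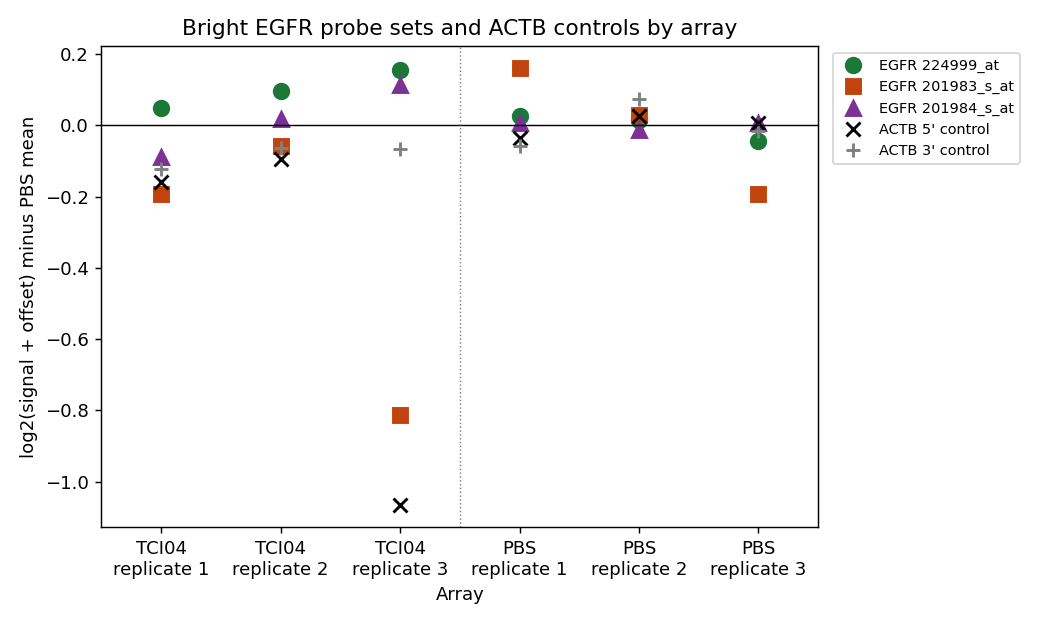
Log2(signal + offset) on each array minus the mean of the 3 PBS arrays, for the 3 bright EGFR probe sets and for the 3' and 5' control probe sets of ACTB. On TCI04 replicate 3, EGFR 201983_s_at (-0.81) and the ACTB 5' control (-1.07) lie far below zero while the other 3 series stay between -0.07 and 0.15.

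The dim EGFR probe sets gave wide intervals. EGFR 1565483_at measured 35.5, 40.1 and 61.5 with TCI04, against 76.2, 61.6 and 99.5 with PBS. The groups did not overlap, although TCI04 replicate 3 and PBS replicate 2 were within 0.1 units of signal of each other, and the log2 fold change was -0.67 (standard error 0.31) (limma, adjusted p = 0.699). The neighbouring 1565484_x_at, from the same transcript accession, gave -0.32 with overlapping groups. EGFR 211607_x_at measured 89.8, 22.5 and 7.30 with TCI04, against 60.9, 81.3 and 58.6 with PBS, so that 1 TCI04 array was above and the other 2 below every PBS array. EGFR 211551_at had a log2 fold change of -0.02. Below the limit for testing, EGFR 210984_x_at measured 7.67, 17.0 and 8.17 with TCI04, against 20.3, 80.5 and 68.1 with PBS. These groups did not overlap and were not tested. EGFR 211550_at stayed between 6.79 and 18.8 on all arrays.

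ERBB2, the receptor amplified in HER2-positive breast cancer, had 2 tested probe sets of 3. ERBB2 216836_s_at measured 402, 413 and 417 with TCI04, against 471, 525 and 400.2 with PBS. The TCI04 arrays were close together, and PBS replicate 3 lay just below all of them. The log2 fold change was -0.17 (standard error 0.12), with an interval from -0.44 to 0.10 (limma, adjusted p = 0.754), and -0.08 without PBS replicate 2. The dim 234354_x_at had a log2 fold change of 0.41 with an interval from -0.54 to 1.36, and the direction rested on PBS replicate 1, since it was -0.03 without that array. The untested 210930_s_at varied from 2.54 to 51.9 among the PBS arrays.

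ERBB3, a neuregulin receptor, was dim in all 5 of its probe sets. Its brightest, 1563253_s_at, measured 111, 133 and 158 with TCI04, against 185, 133 and 102 with PBS. The TCI04 arrays lay inside the PBS range, and the log2 fold change was -0.03 with an interval from -0.55 to 0.49 (limma, adjusted p = 0.978). In ERBB3 215638_at the groups did not overlap, at 27.1, 39.4 and 32.7 with TCI04, against 44.6, 73.8 and 51.4 with PBS. Its log2 fold change was -0.60 (standard error 0.33), with an interval from -1.34 to 0.14 (limma, adjusted p = 0.702). ERBB3 226213_at and 202454_s_at had log2 fold changes of -0.14 and -0.18 with overlapping groups. ERBB3 1563252_at was below the limit, at 5.04 to 13.3 on all 6 arrays.

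Among the ligands, EREG encodes epiregulin, which binds EGFR. EREG 205767_at measured 2294, 1975 and 2709 with TCI04, against 2237, 2136 and 2018 with PBS. TCI04 arrays were both the lowest and the highest, with a log2 fold change of 0.12 (standard error 0.11), with an interval from -0.12 to 0.35 (limma, adjusted p = 0.801). The value rested on TCI04 replicate 3, since it was 0.00 without that array, and it was 0.23 without TCI04 replicate 2. The dim EREG 1569583_at gave -0.47, with TCI04 at 64.8, 51.7 and 29.1 and PBS at 59.5, 75.6 and 72.8. TCI04 replicate 3 was the lowest array, and without it the log2 fold change was -0.21.

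HBEGF, heparin-binding EGF-like growth factor, had 4 probe sets, of which 2 were tested and both were bright. HBEGF 203821_at measured 5387, 4275 and 4642 with TCI04, against 5159, 4442 and 5256 with PBS, and HBEGF 38037_at measured 2441, 2465 and 2299.8 with TCI04, against 2186, 2376 and 2628 with PBS. The groups overlapped in both. The log2 fold changes were -0.06, with an interval from -0.26 to 0.15, and 0.01, with an interval from -0.17 to 0.18 (limma, adjusted p = 0.893 and 0.989). As folds, these intervals ran from 0.832-fold to 1.11-fold and from 0.889-fold to 1.13-fold. The other 2 HBEGF probe sets, 222076_at and 244857_at, stayed at 27.0 or less on every array.

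TGFA encodes transforming growth factor alpha, a ligand of EGFR. TGFA 205016_at measured 944, 826 and 893 with TCI04, against 855, 570.4 and 783 with PBS. The lowest TCI04 array lay below PBS replicate 1 and above the other PBS arrays. The log2 fold change was 0.28 (standard error 0.14), with an interval from -0.02 to 0.59, 1.22-fold higher in mean without passing the test (limma, adjusted p = 0.699). It was 0.11 without PBS replicate 2, the lowest array, and 0.0063 for the average of all 3 TGFA probe sets. TGFA 211258_s_at measured 153, 148 and 131 with TCI04, inside the PBS range of 108 to 184, and had a log2 fold change of 0.01. TGFA 205015_s_at varied from 15.1 to 114 among TCI04 arrays and from 19.6 to 108 among PBS arrays, and its interval ran from -1.63 to 1.08.

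BTC encodes betacellulin, a ligand of EGFR and ERBB4, and both of its probe sets were dim. BTC 241412_at measured 60.3, 59.6 and 110.4 with TCI04, against 41.8, 49.8 and 51.3 with PBS. All TCI04 arrays lay above all PBS arrays, and TCI04 replicate 3 was far above the other 2. The log2 fold change was 0.54 (standard error 0.31), with an interval from -0.14 to 1.22 (limma, adjusted p = 0.704). Without TCI04 replicate 3 it was 0.28. BTC 207326_at also had a higher mean, at 74.6, 56.8 and 47.3 with TCI04 and 47.8, 38.1 and 55.1 with PBS, a log2 fold change of 0.28 with overlapping groups.

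NRG1 encodes neuregulin 1, a ligand of ERBB3 and ERBB4 that is made in several isoforms. NRG1 206343_s_at, its brightest probe set, measured 1594, 1574 and 1610.3 with TCI04, against 1461, 1603 and 1601 with PBS. The groups overlapped, and the log2 fold change was 0.04 (standard error 0.07), with an interval from -0.12 to 0.20 (limma, adjusted p = 0.915). NRG1 208241_at had the smallest unadjusted p of the family, 0.0219 in limma, and an adjusted p of 0.699. It measured 134, 134 and 82.9 with TCI04, against 209, 153 and 176 with PBS. Every TCI04 array lay below every PBS array, with a log2 fold change of -0.59 (standard error 0.22), with an interval from -1.08 to -0.10, 1.51-fold lower.

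Leaving out TCI04 replicate 3 gave 208241_at a log2 fold change of -0.38 (limma, adjusted p = 0.844). NRG1 206237_s_at was also lowest on TCI04 replicate 3, at 266, 231 and 157 with TCI04, against 277, 216 and 235 with PBS, a log2 fold change of -0.17. NRG1 208230_s_at and 208231_at had log2 fold changes of 0.04 and 0.00 with overlapping groups. Shifts were not tested against each other among the NRG1 probe sets. The intervals of 206237_s_at (-0.61 to 0.26) and 208231_at (-0.63 to 0.63) hold the -0.59 of 208241_at. Those of the brightest, 206343_s_at (-0.12 to 0.20), and of 208230_s_at (-0.37 to 0.45) do not hold it. The interval of 208241_at itself (-1.08 to -0.10) overlaps each of them. Whether the shifts differ cannot be read from such intervals. NRG1 208232_x_at, not tested, ranged from 11.5 to 39.0 with TCI04 and from 5.60 to 41.3 with PBS.

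**Figure D3:**
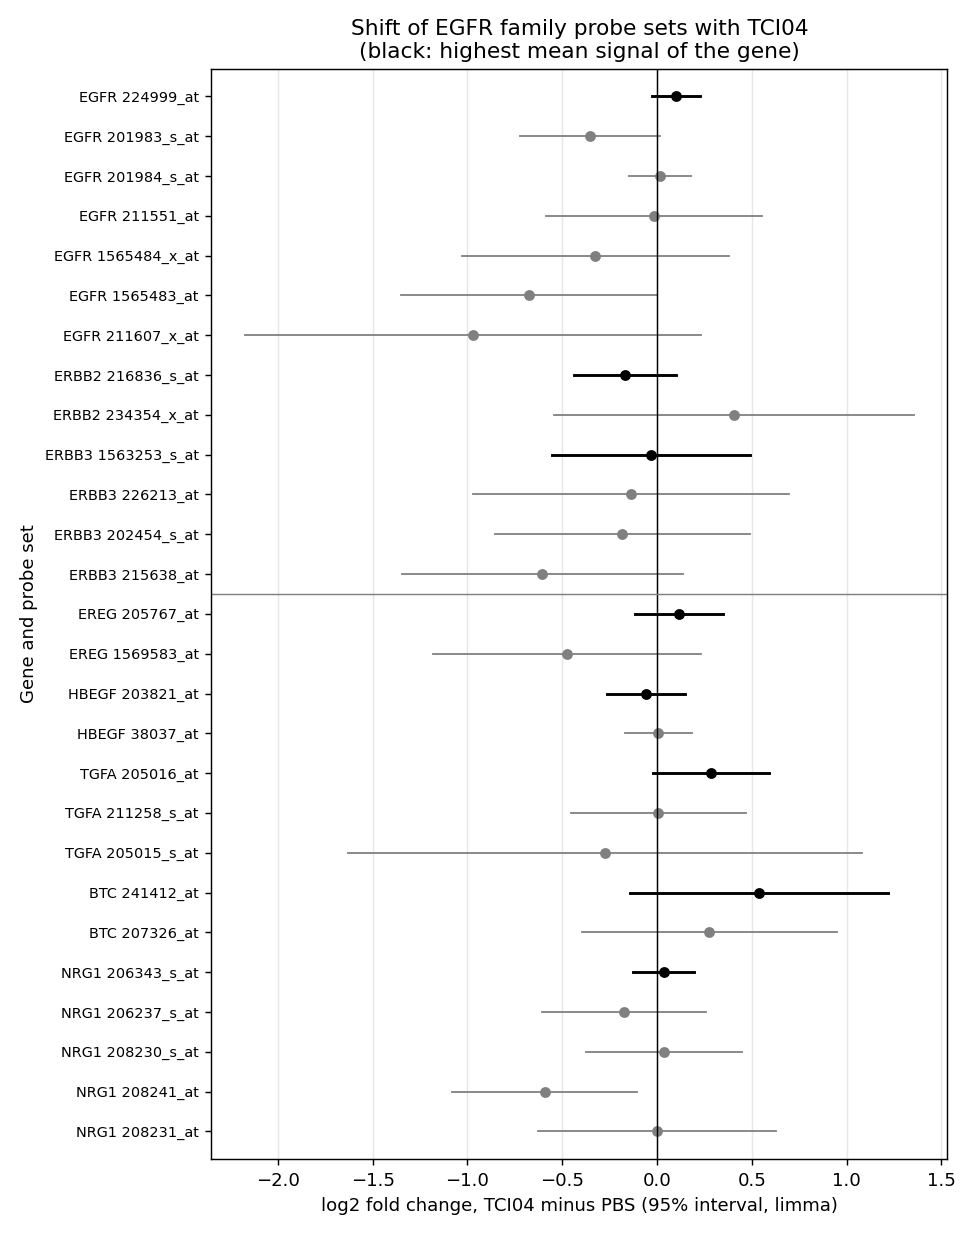
Log2 fold change (TCI04 minus PBS) with its 95% interval from limma for each of the 27 tested probe sets, receptors above the line and ligands below it, in black for the probe set with the highest mean signal of each gene. The black intervals of all 8 genes cross zero, and the interval of NRG1 208241_at (-1.08 to -0.10) lies below zero without passing the adjusted threshold.

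Groups that did not overlap were seen in 5 of the 27 tested probe sets, where 13.6% of all tested probe sets showed this. The 2 with higher TCI04 arrays were EGFR 224999_at and BTC 241412_at (5.34% over all tested probe sets), and the 3 with lower TCI04 arrays were EGFR 1565483_at, ERBB3 215638_at and NRG1 208241_at (8.21%). Signs within a gene were mixed for 6 of the 8 genes, the exceptions being ERBB3, with 4 of 4 negative, and BTC, with 2 of 2 positive. The ERBB3 signs depended on the scaling. After quantile normalization ERBB3 1563253_s_at was at 0.064 and 226213_at at 0.020. Over all tested probe sets 56.2% were negative in the main fit. TCI04 replicate 3 was the lowest of the 6 arrays in 5 of the 27 probe sets (EGFR 201983_s_at and 211607_x_at, EREG 1569583_at, NRG1 206237_s_at and 208241_at), or 18.5%, against 23% of all tested probe sets. The same array was the highest in 6 of the 27, or 22.2%, against 20.7% of all tested probe sets.

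By the probe set with the highest mean signal, the log2 fold change was positive for 5 genes and negative for 3. The interval lay within 1.5-fold in each direction for 6 of these 8 probe sets, those of EGFR, ERBB2, ERBB3, EREG, HBEGF and NRG1, and not for TGFA or BTC. Over all 27 the interval lay within 1.5-fold for 10, and over all tested probe sets for 55%.

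The genes whose brightest probe set followed EGFR 224999_at most closely over the 6 arrays were MEF2A, KHDC4 and KAT2B, with Pearson correlations of 0.999, 0.987 and 0.986. They were the highest of 13696 genes, 43 of which lay above 0.95, so such values are found among many genes with 6 arrays. The arrays share their scaling, and no p is given.

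Genes that act around the receptors were read from 3 lists, each gene by its brightest tested probe set. No member of the lists passed the adjusted threshold in either direction. Of 11 ligand-shedding genes, all tested, the log2 fold change was positive for 6 and negative for 5 (median log2 fold change 0.01). Those with the highest signal were the sheddase ADAM10 (9846 ± 663 with TCI04 and 9471 ± 931 with PBS, log2 fold change 0.06), the related protease ADAM9 (9726 ± 456 and 9445 ± 205, 0.04) and NRDC, a peptidase that binds HB-EGF (3693 ± 246 and 3442 ± 145, 0.10).

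Of 23 adaptors and effectors, 20 were tested, 10 with a positive and 10 with a negative log2 fold change (median 0.00). The phosphatase PTPN11 measured 13690.2 ± 701 with TCI04 and 13620.2 ± 326 with PBS, the adaptor SHC1 8551 ± 221 and 8384 ± 262, and the adaptor CRKL 4512 ± 300 and 4459 ± 153, with log2 fold changes of 0.01, 0.03 and 0.02. Of 22 genes of receptor restraint and turnover, 21 were tested, 15 with a positive and 6 with a negative log2 fold change (median 0.05). The EGFR inhibitor ERRFI1 measured 8065 ± 645 with TCI04 and 7395 ± 265 with PBS, a log2 fold change of 0.12 (limma, adjusted p = 0.702). SH3KBP1, which links CBL to endocytosis, had a log2 fold change of -0.03 and SOCS4, a suppressor of cytokine signalling family member, 0.10. Over all 13704 genes tested, 6762 were higher and 6942 lower, with a median of 0.00.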

How the data were processed

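The arrays, 3 per group, measured gene expression in MDA-MB-231 cells given TCI04 or PBS. The deposited table holds intensity values, linear and not logged. MAS5 is named as the software, per the submitters' processing notes; its version, scaling target and any detection calls are not given in the sources used here. No build is named for the array, so no probe set was placed on the genome.

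An offset of 10.96 (the 20th percentile of the table) was added to each signal before taking log2, so the fold changes of dim probe sets are understated. The 62 control probe sets, and probe sets averaging under 37.0 (the 40th percentile), were not tested. The other 32746 were fitted in limma 3.58.1 (R 4.3.3) as TCI04 minus PBS, using lmFit and then eBayes with trend = TRUE. Two-sided p-values were adjusted by Benjamini-Hochberg over all of them, with a threshold of 0.05. The 95% intervals have 10.5 degrees of freedom. The number of arrays limits the precision. In the platform annotation, 41097 probe sets carried 1 symbol, 1801 several and 11777 none; by Entrez ID 41043 were found in RefSeq, where 0 had another symbol.

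Among the family, the probe sets nearest the limit were NRG1 208232_x_at (mean signal 26.2) and EGFR 210984_x_at (33.6) below it, and ERBB2 234354_x_at (42.6) and ERBB3 215638_at (44.8) above it. Probe sets ending in _x_at or _s_at may bind more than 1 transcript. Named were all members, the 3 genes with the highest signal in each list and any list gene past the threshold, the 3 genes most like EGFR 224999_at, and any probe set past the threshold; cell line markers were read from a list. The members and lists were chosen with earlier results of these data known. The steps were tested on simulated data made for this comparison of 3 and 3 arrays, with 200 of 32746 probe sets shifted. Recovery was 24.3% at 1.5-fold, 47.6% at 2-fold and 75.8% at 4-fold, and 3.05 unshifted probe sets were called on average. These are averages over bright and dim probe sets, and the many shifts ease the Benjamini-Hochberg cut-off. They do not give the power for a family probe set here. Alternatives were other scalings, offsets, filters and variance models, array weights, a block for the replicate number, each array left out and, for genes, other choices of probe set.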

Additional observations from a re-analysis of the deposited data

How the results depend on the processing

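In all 19 alternatives 0 members of the family and 0 genes of the 3 lists passed, with adjusted p for the family down to 0.280. The FOS call, 1 lower probe set, was lost (0) with median centring, eBayes without trend and the ordinary test, and the count lay between 0 and 1 when 1 array was left out, staying at 1 only without TCI04 replicate 3. The 5 family probe sets with groups that do not overlap became 2 after quantile normalization and 2 with a filter at the 60th percentile, which tests fewer probe sets, and 7 to 8 with single arrays left out, where fewer arrays make overlap rarer. Median centring moved the median of all tested probe sets from -0.03 to 0.13.

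Of the 27 tested probe sets, 11 kept their sign in every alternative run and 16 were counted as turned in at least 1. This count entered the average over a gene's probe sets under the brightest probe set of that gene. For the brightest probe sets of EGFR, ERBB2 and EREG, that average was the only turn, and their own values kept their sign. The cause of the turns was not tested. After quantile normalization the log2 fold changes were -0.0042 for EGFR 201984_s_at, 0.12 for EGFR 211551_at, 0.064 for ERBB3 1563253_s_at, 0.020 for ERBB3 226213_at, -0.011 for HBEGF 38037_at and 0.16 for NRG1 208231_at. Median centring takes the median of each array off all its values, which raised every log2 fold change by the same amount. With median centring the log2 fold changes were 0.14 for EGFR 211551_at, 0.13 for ERBB3 1563253_s_at, 0.022 for ERBB3 226213_at, 0.10 for HBEGF 203821_at and 0.16 for NRG1 208231_at. With array weights they were -0.018 for EGFR 201984_s_at, 0.028 for EGFR 211551_at and 0.0057 for NRG1 208231_at. Averaging the probe sets of each gene gave -0.32 for EGFR, 0.12 for ERBB2, -0.18 for EREG and -0.14 for NRG1, and leaving out probe sets ending in _x_at or _s_at gave -0.59 for NRG1, which is then 208241_at.

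With single arrays left out the ranges that crossed zero were -0.035 to 0.066 for EGFR 201984_s_at, -0.21 to 0.11 for EGFR 211551_at, -0.029 to 0.68 for ERBB2 234354_x_at, -0.22 to 0.18 for ERBB3 1563253_s_at, -0.51 to 0.12 for ERBB3 226213_at, -0.15 to 0.018 for HBEGF 203821_at, -0.058 to 0.075 for HBEGF 38037_at, -0.32 to 0.035 for NRG1 206237_s_at, -0.0078 to 0.059 for NRG1 206343_s_at, -0.073 to 0.15 for NRG1 208230_s_at, -0.062 to 0.087 for NRG1 208231_at, -0.88 to 0.25 for TGFA 205015_s_at and -0.18 to 0.18 for TGFA 211258_s_at. Taking the replicate number as a block left 0 family probe sets and 1 probe set in all past the threshold. Deviations of same-numbered arrays correlated at 0.0069, 0.068 and 0.055. Each array correlated best with its own number, but PBS replicate 1 correlated nearly as well with TCI04 replicate 3 (0.0067). These correlations were weak, and the design names no pairing.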
